A study of Mus musculus with 30 samples.

Results

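The genes described here encode the mitochondrial protein import machinery, measured in single mouse muscle fibres after the mitochondrial calcium uniporter MCU had been raised or lowered. They were taken by name: every non-control probe of the array whose gene name starts with Timm or Tomm, or is Chchd4, Gfer, Hspa9, Hspd1, Hspe1, Pmpca, Pmpcb, Samm50, Dnajc19 or Grpel1. The rule took 32 genes with 52 probes, of 35440 gene names and 55681 probes in all, and used no measured value. Of the 32 genes, 30 passed the filter on dim probes and were tested among 23342 genes; Tomm20l and Timm8a2 did not pass it.

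The mice were male CD1 animals of 8 weeks, and in all but the wild type group the extensor digitorum longus, a hindlimb muscle rich in fast fibres, was injected with adeno-associated virus (AAV). Single fibres, which the titles call fast, were later freed with collagenase and picked by hand, per the labels. The 8 groups were uninjected wild type fibres, fibres with AAVMCU, which overexpresses MCU (the MCU vector), transfected controls, and fibres with AAVshMCU, which silences MCU, each at 7 and 14 days. Day 7 had 4, 3, 4 and 3 fibres in that order, and day 14 had 4 of each. Titles give the transfected control as AAVshLuc, while another label describes virus without a cloned insert, and the sources used here do not settle which holds. Fibres of injected muscles were picked for ZsGreen fluorescence, and RNA was amplified only where quantitative PCR had shown the intended change of MCU, so Mcu itself is no independent result. The animal behind each fibre is not given, so p-values measure only how single fibres vary, and some fibres may share a mouse.

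Nearly all mitochondrial proteins are made in the cytosol as precursors and enter through the TOM complex of the outer membrane. From there, barrel proteins go to the SAM complex, small cysteine-rich proteins are held in the intermembrane space by the disulfide relay of Chchd4 and Gfer, and carrier proteins are passed by small Timm chaperones to the TIM22 translocase. Proteins with a presequence cross the inner membrane through TIM23, pulled by a motor around Hspa9, are cut by the processing peptidase and are folded by the Hspd1 and Hspe1 chaperonin.

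The sequences below belong to the 3 import genes with the smallest p in the vector and silencing comparisons. Of these, Chchd4 was called under silencing, while Hspd1 and Hspe1 were called neither with the vector nor under silencing. Hspd1 and Hspe1 lie head to head on mouse chromosome 1, and RefSeq places 215 bases between their start sites (build GRCm38.p6, chr1:55087933-55088147, printed on the plus strand, which is the strand of Hspe1). The capitals mark 18 bases, 89 to 72 bases before the start of Hspe1, that hold 2 overlapping matches, 1 on each strand, of the heat shock element letters TTCNNGAANNTTC.
Hspd1-Hspe1: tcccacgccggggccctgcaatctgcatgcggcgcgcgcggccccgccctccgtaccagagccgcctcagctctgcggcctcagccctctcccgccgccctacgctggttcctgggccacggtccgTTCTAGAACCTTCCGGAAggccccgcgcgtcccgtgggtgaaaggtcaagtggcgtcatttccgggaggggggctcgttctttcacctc
Chchd4 lies head to head with Tmem43 on chromosome 6, with 283 bases between the start sites. The 250 bases before the start of Chchd4 (GRCm38.p6, chr6:91473424-91473673, minus strand) hold in capitals a match on the opposite strand of GCGCANGCGC, the core letters of the site of nuclear respiratory factor 1, 196 to 187 bases before the start.
Chchd4: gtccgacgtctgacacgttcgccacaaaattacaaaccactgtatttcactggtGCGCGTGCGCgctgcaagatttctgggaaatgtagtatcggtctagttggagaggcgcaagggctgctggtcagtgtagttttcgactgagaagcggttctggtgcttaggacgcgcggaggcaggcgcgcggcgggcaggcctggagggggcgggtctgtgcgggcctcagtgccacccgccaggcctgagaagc
Of 27025 genes with a promoter window of 250 bases before to 50 after a start in the RefSeq table, searched on both strands, 0.662% held TTCNNGAANNTTC and 5.19% held GCGCANGCGC. Among the 29 import genes in that table, Hspd1, Hspe1 and Timm9 held the first, and Chchd4, Hspd1, Timm8b and Tomm20 the second. Timm9 held its match as TTCTAGAAATTTC. The heat shock match of Hspd1 and of Hspe1 is 1 shared stretch, and a match of letters is a description only.

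All levels here are log2 processed intensity minus the 75th percentile of the array's probes, and a difference is a log2 difference between group means with its standard error (SE). That percentile lay between 83.2 and 138 across the 30 arrays, on which between 49.4% and 59.5% of all probes exceeded background clearly. It was lower in silenced fibres at day 7 (83.2 to 104) than in their transfected controls (108 to 128). Treated and control fibres of each comparison shared a slide on each day. Transfected control and wild type fibres lay on different slides, so for these slide and group cannot be told apart. Day 7 and day 14 fibres also lay on different slides, so slide and day cannot be told apart. Fibre markers were well above background on every array, at least 9 of 10. Markers of other cells were too: 5 to 7 of 8 leukocyte, 2 to 5 of 5 endothelial, 1 to 4 of 4 mural, 1 to 3 of 4 Schwann cell, 0 to 4 of 5 fibroblast and 0 to 2 of 5 satellite cell markers, depending on the array. Pdgfra, Myf5 and Calcr were well above background on none. Markers called with the vector or under silencing, and some others that moved, are given beside those comparisons.

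Every one of the 30 tested import genes had its representative probe well above background on all 30 arrays, with no saturated spot. Their median standard deviation within groups was 0.21, with a range from 0.12 to 0.46, against 0.31 over all genes tested. Mcu differed from wild type by 0.60 with the MCU vector at day 7 (limma, adjusted p = 0.999) and by 3.90 at day 14 (adjusted p = 4.0e-06), and from the transfected control by -2.08 at day 7 and -3.07 at day 14 under silencing (adjusted p = 0.0016 and 1.75e-05). At day 7 the vector fibres, at 3.60, 3.13 and 3.09, lay above wild type at 2.73, 2.47, 2.55 and 2.92 by far less than at day 14, where they lay between 5.87 and 6.66.

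Under the MCU vector no import gene was called at an adjusted p below 0.05 over both days, on a background of 1.13% of all genes tested, nor at day 7 (background 0.574%) or day 14 (background 0.428%). At an unadjusted p below 0.05 the 5 genes Hspd1, Hspe1, Tomm5, Timm22 and Dnajc19 were lower over both days and 0 higher, where 7.08% of all genes were lower. By the same measure 2 import genes were lower at day 7 (background 2.81%) and 3 at day 14 (background 5.99%). The median difference over the 30 genes was -0.12, against -0.02 over all genes, and 7 of 30 differences were above 0. Beside this, the summed level of 4 Schwann cell markers was 0.36 to 0.70 with the vector at day 7 and 1.24 to 1.71 in wild type, and that of 5 fibroblast markers at day 14 was -1.68 to -0.73 against -1.04 to 2.99; their part was not tested. Under MCU silencing 2 of 30 were called over both days, Chchd4 higher and Tomm20 lower, on a background of 14.1% (8% higher and 6.1% lower). Tomm5 was the 1 gene called at day 7, where 13.4% of all genes were called and 8.28% called higher. Chchd4 was the 1 gene called at day 14, where 3.46% were called and 1.54% called higher. Both were higher in silenced fibres. The share of import genes called was below the background share over both days and at day 7, and about the same at day 14. Their median difference under silencing was 0.10 over both days, 0.19 at day 7 and 0.00 at day 14, against 0.04, 0.08 and -0.01 over all genes. Beside this, the mural marker Cspg4 and the Schwann cell marker Sox10 were called higher over both days, at 0.93 and 0.69 (limma adjusted p = 0.0013 and 0.0480). The leukocyte marker Cd68 was called lower, at -2.11 (limma adjusted p = 0.0052). The part of these cells was not tested.

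**Figure D1:**
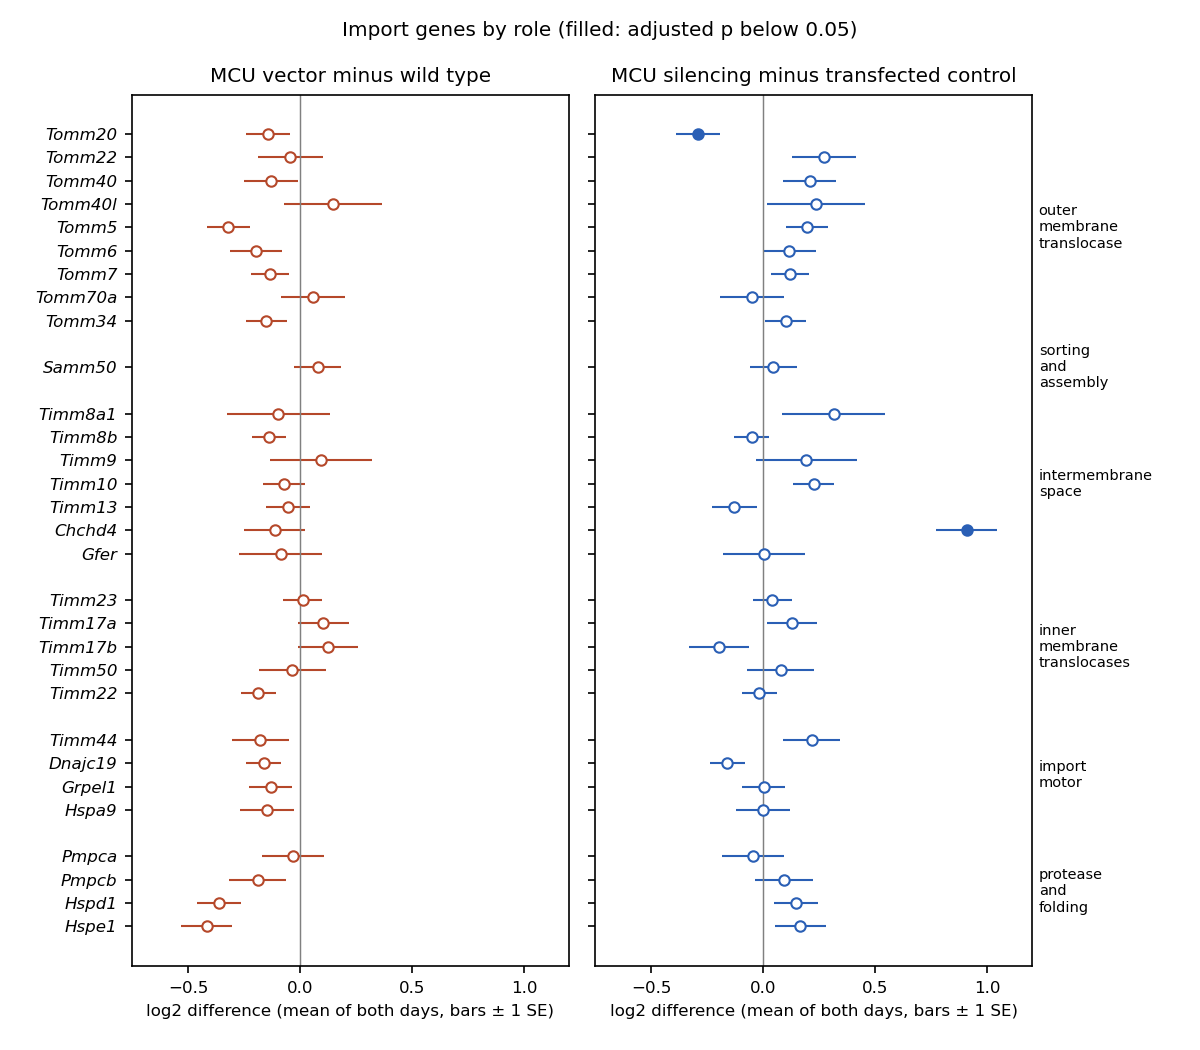
Log2 difference of each of the 30 tested import genes (rows, grouped by role) for the MCU vector minus wild type (left) and MCU silencing minus transfected control (right), as the mean of both days with bars of 1 SE; filled points have an adjusted p below 0.05. On the left no point is filled and 23 of 30 lie below 0; on the right Chchd4 stands at 0.91 and Tomm20 at -0.29.

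The outer membrane translocase had 9 tested genes: the receptors Tomm20, Tomm22 and Tomm70a, the channel Tomm40 and its relative Tomm40l, the small subunits Tomm5, Tomm6 and Tomm7, and the cytosolic cochaperone Tomm34. With the MCU vector 7 of the 9 lay below 0 over both days (median -0.13), and none was called. Under silencing 7 of 9 lay above 0 (median 0.12), with Tomm20 called lower.

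Tomm20, a receptor for presequence precursors, fell in silenced fibres by 0.29 over both days (SE 0.10, limma adjusted p = 0.0489). At day 7 its levels were 2.84, 3.22, 2.99 and 2.91 in transfected control fibres and 2.63, 2.83 and 2.48 in silenced fibres. At day 14 they were 2.85, 2.91, 2.76 and 3.05 in the controls and 2.54, 2.56, 2.73 and 2.80 in silenced fibres. The groups just missed each other at day 7, with the nearest fibres at 2.84 and 2.83, and overlapped at day 14. The call was lost when any of 11 of the 15 fibres was left out (differences from -0.34 to -0.25, adjusted p from 0.037 to 0.13 over the 15), and under 11 of 14 alternative settings (-0.41 to -0.21, adjusted p from 0.013 to 0.15), among them quantile normalization and the submitters' values. A different Tomm20 probe gave -0.15 (adjusted p = 0.425), and the probe used shares 39 bases with a probe named Gm15365. In wild type fibres Tomm20 was 2.99, 2.57, 2.62 and 2.76 at day 7 and 2.52, 3.00, 2.72 and 2.75 at day 14. With the MCU vector it was 2.56, 2.46 and 2.43 at day 7, all below wild type, and 2.51, 2.48, 2.99 and 2.89 at day 14, where the groups overlapped. The nearest fibres at day 7 were at 2.56 and 2.57, and the 2 Tomm20 probes differed in sign with the vector on each day.

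Tomm5, a small subunit that stabilises the channel, rose in silenced fibres at day 7 by 0.42 (SE 0.14, adjusted p = 0.0487). The silenced fibres lay at 5.00, 4.99 and 4.86, all above the transfected controls at 4.47, 4.59, 4.55 and 4.52. At day 14 silenced fibres, at 4.61, 4.18, 4.75 and 4.57, lay around the controls at 4.52, 4.67, 4.49 and 4.53, with a difference of -0.02 (adjusted p = 0.943). The change between days, -0.44 (SE 0.19), was not called (adjusted p = 0.204). The day 7 call was lost when any 1 of the 7 fibres was left out (0.39 to 0.46, adjusted p from 0.063 to 0.125), and under 10 of 14 alternative settings (0.29 to 0.48, adjusted p from 0.017 to 0.29). Beside this, the summed level of 8 leukocyte markers, led by Itgam, was 8.19 to 8.39 in silenced fibres at day 7 and 7.89 to 8.11 in their controls, and that of 4 Schwann cell markers 0.93 to 1.45 against -0.64 to 0.42. The leukocyte sum follows its brightest marker: of 7 leukocyte markers tested at day 7, Itgam was called higher (0.32) and Cd68 and Adgre1 lower (-2.76 and -1.39). The Schwann cell marker Sox10 (1.32) and the mural marker Cspg4 (2.19) were also called higher at day 7, while the summed mural level overlapped, at 1.35 to 2.35 against -0.36 to 1.76. The part of these cells in the day 7 differences was not tested.

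With the MCU vector Tomm5 was 3.92, 4.03 and 4.27 at day 7, against wild type fibres at 4.41, 4.05, 4.28 and 4.51. At day 14 it was 4.05, 3.82, 4.24 and 4.28, against 4.26, 4.52, 4.64 and 4.58. The groups overlapped on both days, and the difference over both days, -0.32 (SE 0.10), was not called (adjusted p = 0.110). The vector effect minus the silencing effect was -0.52 (adjusted p = 0.0160), and a different Tomm5 probe gave -0.44 (adjusted p = 0.0462).

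Tomm6, another small subunit, was 0.50 higher in silenced fibres at day 7 (adjusted p = 0.0517) and -0.26 at day 14, but its 2 probes disagreed, the dimmer one giving -0.50 at day 7. That dimmer Tomm6 probe was well above background on 6 arrays, and the probe used on 30. Tomm7 was 0.30 higher at day 7 (adjusted p = 0.102), with no overlap between the groups. Its 2 probes also differed in sign there, with 0.86 between them. The dimmer Tomm7 probe was well above background on 7 arrays. Tomm22, Tomm40, Tomm40l, Tomm70a and Tomm34 had differences between -0.15 and 0.27 over both days in the 2 comparisons, none called. Silenced fibres overlapped their controls on both days for each of these 5 genes.

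Samm50, the core of the SAM complex that inserts barrel proteins, differed by 0.08 with the MCU vector (SE 0.10, adjusted p = 0.798) and by 0.05 under silencing (SE 0.10, adjusted p = 0.812). At day 7 it was 3.41, 3.07, 3.08 and 3.48 in wild type, 3.14, 3.44 and 3.55 with the vector, 3.53, 3.46, 2.91 and 3.46 in transfected control and 3.58, 3.43 and 3.63 in silenced fibres. At day 14 the same groups gave 3.39, 3.22, 3.25 and 3.34, then 3.21, 3.40, 3.30 and 3.45, then 3.18, 3.19, 3.45 and 3.63, and then 3.38, 3.08, 3.40 and 3.13. All compared groups overlapped, and the sign under silencing turned with the scaling to -0.077 when arrays were centred on their median.

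The intermembrane space had 7 tested genes, the small chaperones Timm8a1, Timm8b, Timm9, Timm10 and Timm13 and the relay proteins Chchd4 and Gfer. Chchd4, the mouse Mia40, is the oxidoreductase that forms disulfides in incoming precursors and so holds them in this space. It was 3.42-fold higher in silenced than in transfected control fibres at day 14, a log2 difference of 1.77 (SE 0.18, limma adjusted p = 1.9e-06).

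The 4 silenced fibres at day 14 stood at 1.48, 1.54, 1.60 and 1.49. Their transfected controls stood at -0.01, -0.56, -0.18 and -0.23, so the groups did not overlap. At day 7 silenced fibres were at -0.63, 0.03 and -0.22 and controls at 0.16, -0.41, -0.49 and -0.53, which overlap. The day 7 difference was 0.04 (SE 0.20, adjusted p = 0.913), and the change of the silencing effect from day 7 to day 14 was 1.73 (SE 0.27, adjusted p = 3.6e-04), on a background of 4.13% of genes called for such a change and 1.38% for a rise. Chchd4 was the 1 import gene called for it.

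Wild type fibres had Chchd4 at -0.54, -0.67, -1.17 and -0.39 at day 7 and -0.24, 0.02, -0.35 and -0.37 at day 14. Fibres with the MCU vector had -1.06, -0.55 and -0.90 at day 7 and -0.68, -0.28, -0.21 and -0.10 at day 14. The vector groups overlapped wild type on both days, with a difference of -0.11 over both days (SE 0.14, adjusted p = 0.775). All 4 silenced fibres at day 14 lay above the other 26 fibres, whose highest was 0.16. Over both days silenced fibres were 0.91 higher (SE 0.14, adjusted p = 1.3e-04). The day 14 difference was called under every one of the 14 alternative settings tried (1.33 to 1.86) and with each of the 8 fibres left out (1.67 to 1.85). Beside it, the erythroid marker Hba-a1 was 3.01 higher at day 14 (SE 1.46, unadjusted p = 0.0498, adjusted p = 0.269), and the summed level of the erythroid list was -0.74 to 6.58 in silenced fibres and -0.70 to -0.07 in controls. Of 7 leukocyte markers tested at day 14, Cd68 and Cd3e were lower at an unadjusted p below 0.05 and 0 were higher, with none called. They had -1.46 and -0.42 (limma adjusted p = 0.230 and 0.192). At an unadjusted p below 0.05, 1 of 9 fibre markers tested was higher at day 14 and 3 were lower, with none called. Myh1 had 4.03 (limma adjusted p = 0.0703), and Myh4, Mylpf and Pvalb had -2.21, -0.67 and -1.14 (adjusted p from 0.124 to 0.195). Over all genes 2193 of 23342 were higher and 2131 lower by that measure. The part of these markers was not tested.

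Chchd4 was read by 1 probe, on mm9 at chr6:91414696-91414755, minus strand, whose first 30 of 60 bases are printed to show what the value rests on.
Chchd4 probe: gttgagacttctcagcaaccaaaagttgtt
The probe shared no stretch of 25 bases or more with any probe of another name. Tmem43, the neighbour that starts 283 bases away in the other direction, had 0.33 under silencing at day 14 (SE 0.25, adjusted p = 0.519) and -0.47 at day 7 (adjusted p = 0.265). Gfer, the sulfhydryl oxidase that re-oxidises Chchd4, had differences of 0.00 at day 7 (SE 0.27) and 0.01 at day 14 (SE 0.25) under silencing, and -0.09 over both days with the vector (SE 0.18). At day 14 its silenced fibres were -1.17, -0.07, -0.65 and 0.02 and its controls -0.96, -0.22, -0.26 and -0.45, so the groups overlapped.

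**Figure D2:**
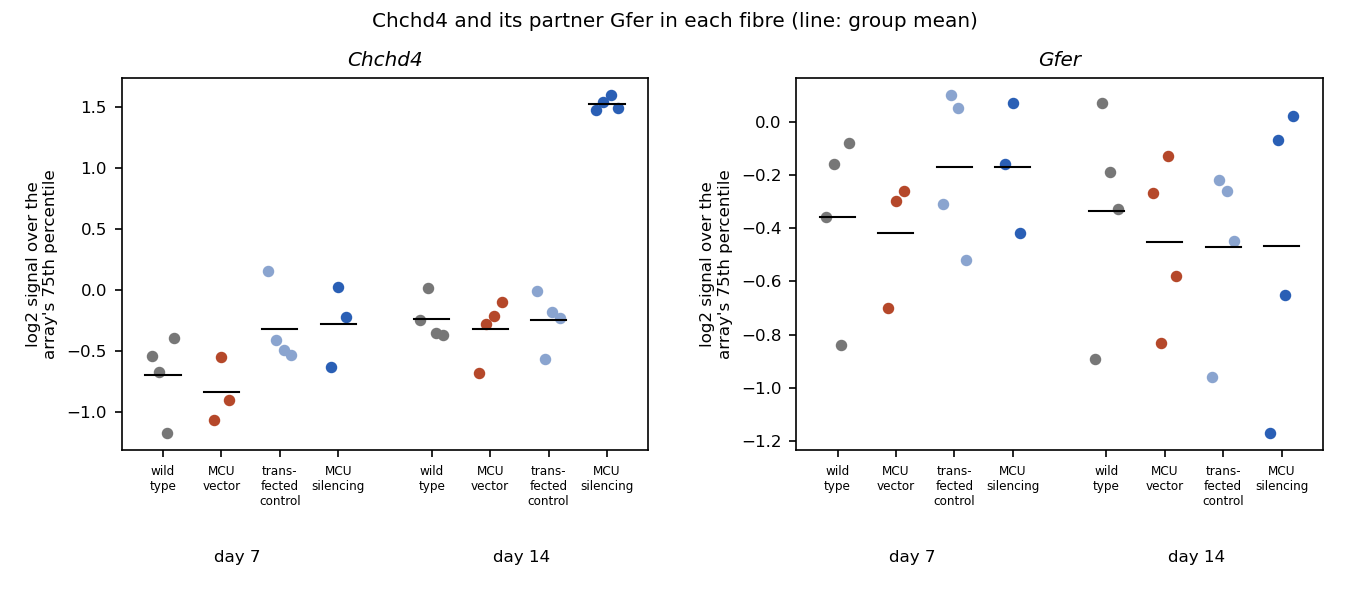
Level of Chchd4 (left) and Gfer (right) in each of 30 fibres, as log2 signal over the array's 75th percentile; points are fibres, lines are group means, and groups are ordered by day. For Chchd4 the 4 silenced fibres at day 14 lie between 1.48 and 1.60, above all other fibres, while the Gfer groups overlap.

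Timm9, which with Timm10 carries hydrophobic precursors to TIM22, stood in silenced fibres at 0.00, -0.07 and -0.21 at day 7, above the controls at -0.99, -1.15, -0.72 and -1.21. The difference, 0.92 (SE 0.33), was not called (adjusted p = 0.0654). At day 14 silenced fibres were at -2.15, -1.86, 0.16 and -1.99 and controls at -0.84, -0.57, -0.85 and -1.43. Of the silenced fibres 3 lay below all controls and fibre 3 above them all. The day 14 difference was -0.53 (adjusted p = 0.365) and the change between days -1.46 (adjusted p = 0.0679). Without that fibre they were -1.07 (adjusted p = 6.4e-04) and -2.00 (adjusted p = 3.2e-05), so 1 fibre decides both calls. Timm9 was described after its values had been seen.

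Timm10 was 0.23 higher in silenced fibres over both days (SE 0.09, adjusted p = 0.101). Silenced fibres at 3.80, 3.74 and 3.71 lay above controls at 3.53, 3.64, 3.38 and 3.54 at day 7, and at 3.60, 3.80, 3.77 and 3.67 above controls at 3.46, 3.43, 3.58 and 3.48 at day 14. It was the 1 import gene whose silenced fibres did not overlap the controls on either day. The share of all genes that separate on both days was not computed. The dimmer Timm10 probe gave 0.35 (adjusted p = 0.0284). Groups did not overlap, in either direction, for 7 of 30 import genes under silencing at day 7, on a background of 21.8%, and for 4 of 30 at day 14, on a background of 9.1%. At day 7 Hspe1, Timm10, Timm17a, Timm9, Tomm5 and Tomm7 were higher and Tomm20 lower, and at day 14 Chchd4 and Timm10 were higher and Timm23 and Timm8b lower.

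Timm8b, which like Timm13 serves inner membrane precursors, was 5.68, 5.67, 5.68 and 5.89 in controls at day 14 and 5.41, 5.27, 5.53 and 5.46 in silenced fibres, all lower. The difference was -0.31 (SE 0.11, adjusted p = 0.10). At day 7 controls at 5.54, 5.48, 5.70 and 5.36 overlapped silenced fibres at 5.64, 5.82 and 5.73, and the change between days, -0.52 (SE 0.15), was not called (adjusted p = 0.0557). It was called, at -0.58 (adjusted p = 0.0380), without fibre 3 of the day 7 controls. With the MCU vector Timm8b was 5.37, 5.48 and 5.45 at day 7 and 5.36, 5.43, 5.54 and 5.47 at day 14, against wild type at 5.61, 5.48, 5.29 and 5.66, and 5.51, 5.89, 5.55 and 5.65. That difference was -0.14 (adjusted p = 0.452). Timm8a1 and Timm13 had 0.32 and -0.13 under silencing and -0.10 and -0.05 with the vector, none called.

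**Figure D3:**
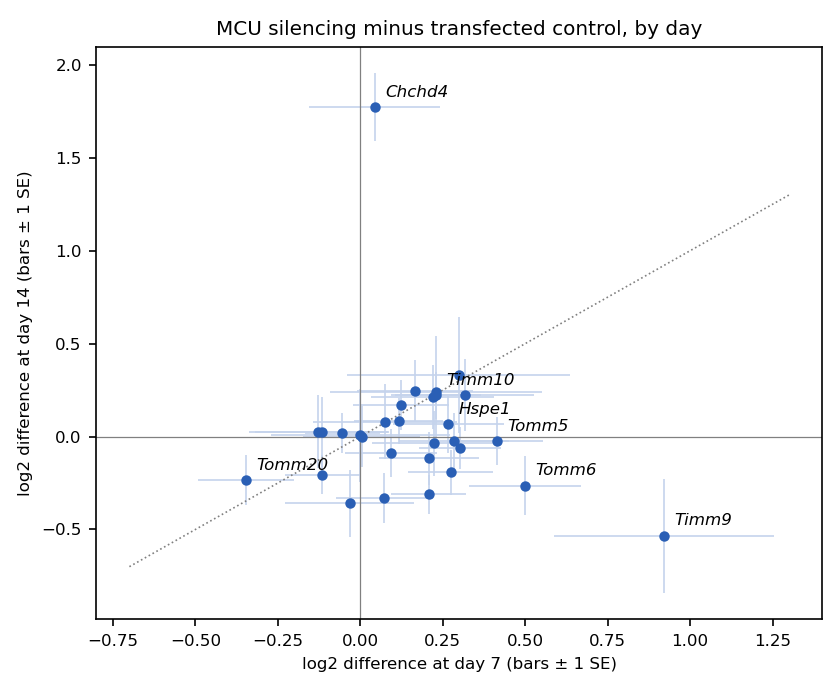
Log2 difference of each import gene between silenced and transfected control fibres at day 7 (horizontal axis) and day 14 (vertical axis), with bars of 1 SE; the dotted line marks equal differences. Chchd4 lies at 0.04 and 1.77, Timm9 at 0.92 and -0.53, and Tomm5 at 0.42 and -0.02.

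The inner membrane translocases had 5 tested genes, Timm23, Timm17a, Timm17b and the receptor Timm50 of the TIM23 complex, and Timm22, the channel for carrier proteins. None was called with the vector or under silencing, over both days or on either day. Timm17b had the smallest p among them under silencing, at -0.20 (SE 0.13, adjusted p = 0.338), and its probe shares all 60 bases with a probe of a chromosome 16 interval, so its signal cannot be assigned to 1 gene. Its control fibres were 3.78, 4.00, 4.24 and 3.51 at day 7 and 3.67, 4.06, 3.50 and 3.95 at day 14. Its silenced fibres were 3.88, 4.13 and 3.55, and 3.19, 3.40, 3.30 and 3.86, and overlapped the controls on both days.

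Timm22 was 1.49, 1.47, 1.29 and 1.54 in wild type and 1.01, 1.23 and 1.23 with the vector at day 7, all lower. At day 14 it was 1.61, 1.60, 1.32 and 1.42 against 1.41, 1.37, 1.43 and 1.41, within the wild type range. The difference over both days was -0.19 (SE 0.08, adjusted p = 0.289). Vector and wild type fibres did not overlap, in either direction, for 4 of 30 import genes at day 7, on a background of 8.1%, and for 2 of 30 at day 14, on a background of 8.28%, and each of these was lower with the vector. At day 7 these were Timm22, Tomm20, Tomm40 and Tomm6, and at day 14 Hspd1 and Tomm34.

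In the import motor, Timm44 docks the motor at the channel, Hspa9 is the matrix Hsp70 that pulls, Dnajc19 is its J protein and Grpel1 its nucleotide exchange factor. All 4 lay below 0 with the vector, from -0.18 to -0.13 over both days, and none was called. Under silencing they ranged from -0.16 to 0.22, and none was called. Hspa9 differed by 0.00 under silencing (SE 0.12).

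Dnajc19 differed by -0.16 in both comparisons (SE 0.08, adjusted p = 0.372 with the vector and 0.166 under silencing). At day 7 it was 6.54, 6.26, 6.40 and 6.45 in wild type, 6.24, 6.27 and 6.26 with the vector, 6.50, 6.19, 6.20 and 6.30 in controls and 6.10, 6.17 and 6.28 in silenced fibres. At day 14 it was 6.43, 6.22, 6.46 and 6.17, then 6.17, 6.29, 6.12 and 6.03, then 6.52, 6.75, 6.69 and 6.76, and then 6.69, 6.51, 6.40 and 6.30. The compared groups overlapped on both days. These values are of 1 of 3 Dnajc19 probes, each well above background on all 30 arrays. The 3 probes had the same sign with the vector over both days and on each day. Under silencing they differed in sign over both days, with 0.17 between them, and at day 7 and day 14, with 0.36 and 0.35.

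Pmpca and Pmpcb form the matrix peptidase that removes presequences, and Hspd1 (Hsp60) and Hspe1 (Hsp10) the chaperonin that folds the imported proteins. All 4 lay below 0 with the MCU vector over both days, from -0.42 to -0.03, and none was called. Pmpca and Pmpcb had -0.03 and -0.19 with the vector and -0.05 and 0.09 under silencing. The dimmer Pmpca probe, well above background on 24 arrays, had the same sign under silencing over both days and at day 7. At day 14 the 2 probes differed in sign, with 0.06 between them. Pmpca was among the genes that gained a call under an alternative setting. The dimmer probe lay 0.53 further from 0 than the probe used over both days and 1.01 further at day 7.

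Hspd1 differed from wild type by -0.36 with the vector (SE 0.10, adjusted p = 0.0742). At day 7 wild type fibres were at 3.07, 2.84, 2.64 and 3.13 and vector fibres at 2.48, 2.52 and 2.72. At day 14 they were at 2.83, 2.76, 3.10 and 3.22 against 2.57, 2.67, 2.51 and 2.65. At day 14 all vector fibres lay below all wild type fibres, and at day 7 the groups overlapped. Without fibre 3 of wild type at day 7 the difference was -0.41 (adjusted p = 0.0443), and without fibre 2 of wild type at day 14 it was -0.40 (adjusted p = 0.0479). Transfected controls were at 2.77, 2.90, 2.89 and 2.90, then 2.66, 2.83, 2.88 and 2.88, and silenced fibres at 3.21, 2.74 and 3.03, then 3.15, 2.76, 3.23 and 2.78, with a difference of 0.15 (adjusted p = 0.334).

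Hspe1 differed from wild type by -0.42 with the vector (SE 0.11, adjusted p = 0.0777). At day 7 wild type fibres were at 5.61, 5.25, 4.90 and 5.16 and vector fibres at 4.67, 4.82 and 5.18, and at day 14 at 5.02, 5.32, 5.39 and 5.81 against 4.75, 4.72, 5.05 and 5.06. Vector fibres were mostly the lower, with an overlap on both days. The difference was called with 1 fibre left out in 3 cases, at -0.47 (adjusted p = 0.0460) without fibre 3 of wild type at day 7, at -0.48 (adjusted p = 0.0331) without fibre 1 of wild type at day 14, and at -0.49 (adjusted p = 0.0398) without fibre 3 of the vector at day 7.

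In transfected control fibres Hspe1 was 5.00, 4.95, 4.90 and 4.73 at day 7 and 5.06, 4.97, 5.17 and 5.21 at day 14. In silenced fibres it was 5.21, 5.13 and 5.15, all above the controls at day 7, and 5.31, 5.00, 5.34 and 5.02 at day 14, which overlap. The difference was 0.17 over both days (adjusted p = 0.343). The other 2 probes of Hspe1 gave -0.28 and -0.38 with the vector, not called, and 0.38 (adjusted p = 0.0202) and 0.23 (adjusted p = 0.200) under silencing. Of these 2 probes, 1 shares 45 bases with the probe used and is no separate reading. The probe used shares 30 bases with a probe of an unnamed chromosome 12 interval, and on the opposite strand with another probe of it. These bases are printed because signal over them cannot be assigned to 1 locus.
Hspe1 probe: CATGTAAATAATTTCCATGCCTCCCTTTTA
After subtracting group means, Hspd1 and Hspe1 correlated over the 30 fibres with r = 0.62 (rho = 0.58), a description over values from the same arrays, which share amplification and scaling.

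**Figure D4:**
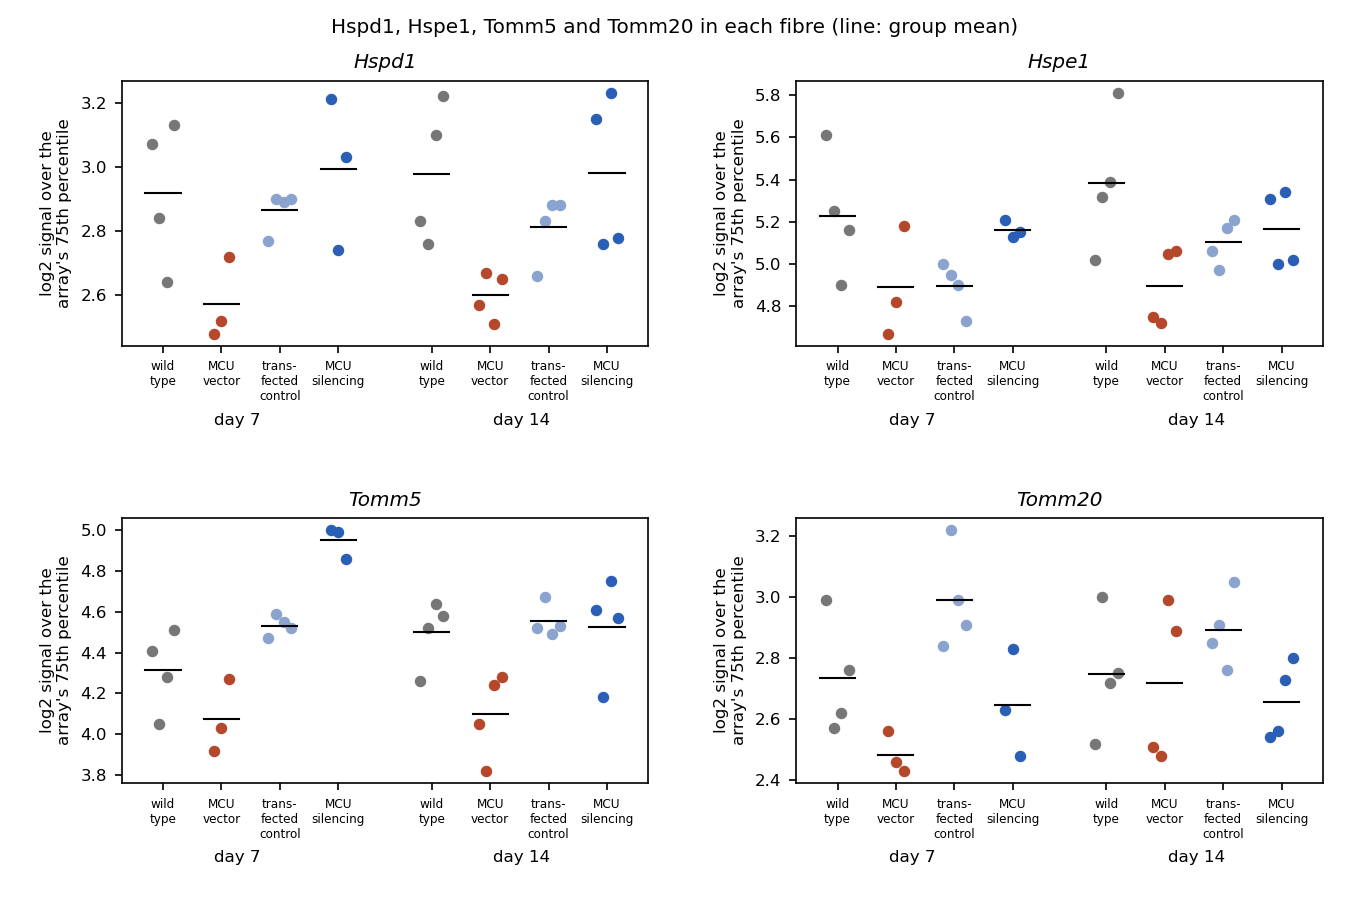
Levels of Hspd1, Hspe1, Tomm5 and Tomm20 in each of 30 fibres, as log2 signal over the array's 75th percentile; points are fibres and lines group means, ordered by day. Hspd1 with the MCU vector at day 14 lies between 2.51 and 2.67, below all wild type fibres of that day, and Tomm5 in silenced fibres at day 7 lies between 4.86 and 5.00, above their controls.

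The vector and silencing comparisons use different control fibres, uninjected for the vector and injected for silencing. Their difference therefore also holds whatever injection did, and the effects of MCU and of injection cannot be told apart in it. The vector effect minus the silencing effect, over both days, was called for 4 of 30 import genes, all negative, on a background of 11.2% in either direction and 5.86% negative. These were Chchd4 at -1.02 (SE 0.19, adjusted p = 0.0015), Hspe1 at -0.58 (adjusted p = 0.0227), Tomm5 at -0.52 (adjusted p = 0.0160) and Hspd1 at -0.51 (adjusted p = 0.0212). The median over the 30 genes was -0.14, against -0.07 over all genes. With arrays centred on their median, Chchd4 alone was called. Without fibre 1 of the vector at day 7 Hspe1 was no longer called, at -0.53 (adjusted p = 0.0537). No import gene was called for a change of the vector effect between days, on a background of 0.201%, and 0 of 30 had an unadjusted p below 0.05, on a background of 3.47%.

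Transfected controls against wild type, a comparison of fibres on different slides, called 3 of 30 import genes, 2 higher and 1 lower, on a background of 27.8% (10.3% higher and 17.5% lower). Timm22 was 0.32 higher (SE 0.07, adjusted p = 0.0025), at 1.57, 1.90, 1.59 and 1.79 at day 7 and 1.98, 1.93, 1.68 and 1.84 at day 14, above all wild type fibres of the same day. In silenced fibres it was 1.68, 1.76 and 1.53, and 1.73, 2.08, 1.84 and 1.86, around the transfected controls. Grpel1 was 0.26 higher (SE 0.09, adjusted p = 0.0383), at 3.59, 3.64, 3.56 and 3.56, and 3.75, 3.75, 4.10 and 4.05, against wild type at 3.73, 3.37, 3.19 and 3.68, and 3.57, 3.48, 3.47 and 3.47. It overlapped at day 7 and was above wild type at day 14. Grpel1 was 3.17, 3.34 and 3.60, and 3.18, 3.37, 3.38 and 3.51 with the vector, and 3.55, 3.82 and 3.67, and 3.83, 3.68, 4.11 and 3.69 under silencing.

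Hspe1 differed between transfected controls and wild type by -0.31 (SE 0.11, adjusted p = 0.0379). Its other 2 probes, 1 of which overlaps the probe used, gave -0.44 and -0.35. Both the MCU vector and the transfected control comparison use the wild type fibres. Leaving out 1 fibre at a time ended the call of Grpel1 for 9 of 16 fibres (0.21 to 0.30) and of Hspe1 for 8 of 16 (-0.37 to -0.24), and that of Timm22 for 0 of 16 (0.29 to 0.35). Grpel1 also lost its call under 8 of 14 alternative settings, with 0.14 (adjusted p = 0.242) from the submitters' values, and Hspe1 under 4 of 14, with -0.15 (adjusted p = 0.371) when arrays were centred on their median. Set against the transfected controls instead of wild type, and so across slides, the MCU vector called 5 of 30 import genes, all lower, on a background of 25.9% of genes called and 10.7% called lower. These were Timm22 at -0.50, Tomm5 at -0.46, Grpel1 at -0.39, Tomm20 at -0.34 and Dnajc19 at -0.29.

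Of 39 other genes of import, membrane assembly and protein quality control, 37 were tested. With the vector none was called over both days (1 higher and 9 lower at an unadjusted p below 0.05), and the median was -0.11. Over all genes 1406 of 23342 were higher and 1652 lower by that measure, and the median was -0.02. Grpel2, Chchd3 and Hscb had the smallest p, with 0.37, -0.36 and -0.55. Under silencing 1 was called higher and 2 lower, a share below the 14.1% called over all genes, and the median was 0.08. Mtx2, an outer membrane partner of Samm50, was 0.81 higher (SE 0.24, adjusted p = 0.0239). Pitrm1, which degrades cut presequences, fell by 0.44 (SE 0.11, adjusted p = 0.0104), and Trap1, the matrix Hsp90, fell by 0.35 (SE 0.11, adjusted p = 0.0351).

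Of 13 cytosolic heat shock genes 12 were tested, and with the vector 2 were called lower over both days and 11 of 12 lay below 0 (median -0.17), where 0.291% of all genes were called lower and 12724 of 23342 lay below 0. The Hsp40 gene Dnajb1 fell by 2.01 (SE 0.40, adjusted p = 0.0064) and the inducible Hsp70 gene Hspa1a by 2.26 (SE 0.56, adjusted p = 0.0443), while Hsp90aa1 had -1.09 (adjusted p = 0.0604). In transfected controls against the same wild type fibres, these 3 genes gave -1.68, -3.18 and -0.91, all called. Under silencing 1 of 12, Dnaja1, was called lower (6.1% of all genes were), at -0.68 (adjusted p = 0.0474), while Hspa1a and Dnajb1 had 1.39 and 0.86, not called. Of the 9 of these genes with a RefSeq promoter window, Hsph1 held TTCNNGAANNTTC. Of all genes whose promoter held it, 71 were tested, and with the vector over both days none was called and the median was -0.02, the same as over all genes.

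Of 12 genes of the integrated and mitochondrial stress response 11 were tested. None was called under the vector over both days (0 higher and 2 lower at an unadjusted p below 0.05), with a median of -0.07. Over all genes 7.08% were lower by that measure, and the median was -0.02. Under silencing at day 7, 3 of 11 were called higher, where 8.28% of all genes were, Asns at 1.84 (SE 0.55, adjusted p = 0.0266), Psat1 at 0.91 (adjusted p = 0.0017) and Trib3 at 0.83 (adjusted p = 0.0449). Asns and Psat1 are enzymes of asparagine and serine synthesis, and Trib3 is a pseudokinase of the same response. At day 14 none of the 11 was called (1 higher and 1 lower unadjusted), and over both days Psat1 was, at 0.43. Over all genes 2193 of 23342 were higher and 2131 lower unadjusted at day 14, and 8% were called higher over both days. All 10 regulators of mitochondrial biogenesis were tested. Ppargc1a, the coactivator PGC-1alpha, fell by 0.94 over both days under silencing, where 6.1% of all genes were called lower (SE 0.24, adjusted p = 0.0106), and no other of the 10 was called there. With the vector 0 of 10 were called. At an unadjusted p below 0.05, 1 was lower over both days, as were 7.08% of all genes.

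The genes outside the list that varied most like Chchd4 over the 30 fibres, after subtracting group means, were Gm8738 (r = 0.84), Pdp1 (0.80) and Mrpl1 (0.79). For Hspd1 they were LOC100047875 (0.84), Fuom (0.79) and Cpt2 (0.78). For Hspe1 they were a pair of probes of the chromosome 12 interval (0.95 and 0.94), of which the second shares the 30 bases printed above, and a probe with no gene name (0.80). These were picked as the highest of all genes and are given as descriptions.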

How the data were processed

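Each of 30 single fibres was hybridised to its own 1-colour Agilent array. The deposited scanner files hold intensity, written by Agilent Feature Extraction 10.7.3.1 and already background-subtracted and detrended within each array but not scaled between arrays, per the file headers. Per the labels' protocols, RNA was amplified and labelled with random primers, so strand was not kept. The deposited series matrix holds intensity on a linear scale with steps not given in the sources used here (column medians 22.5 to 23.2) and served as an alternative.

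Control and outlier spots were dropped and spots of 1 probe averaged. The log2 value analysed is log2 of the deposited processed intensity minus the array's 75th percentile. A probe was kept (33164 were) if clearly above background on 3 or more arrays of some group, and the kept probe of highest mean stood for its gene (23342 genes). Of 15 import genes with several kept probes, the probes had the same sign for 12 with the vector and 11 under silencing over both days. RefSeq gave current names (26425 probes by accession, 3988 by symbol, 826 by synonym; 24442 kept the deposited name). Probe positions are mm9.

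The 8 group means were fitted together on all 30 arrays in limma 3.58.1 (R 4.3.3, data.table version 1.17.8; 22 residual degrees of freedom), with 2-sided p-values adjusted by Benjamini-Hochberg over all genes tested; called means an adjusted p below 0.05. The fit was tested on simulated data. The number of arrays limits the precision.

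The import genes and the other lists were chosen with earlier results of these data known. Values in every fibre are given for members called in any comparison and, in each role, for those with the smallest p; other lists give up to 3 genes with the smallest p per comparison. Timm9, Timm10, Tomm6, Tomm7 and Gfer, and genes called on 1 day in other lists, were added after their values had been seen.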

Additional observations from a re-analysis of the deposited data

Results flagged for a closer look

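In groups of 4 fibres, 6 of 84 sets of values of the members described had 1 fibre far from the others by Dixon's criterion, where chance gives about 1 in 20. In the transfected controls of day 7 Chchd4 had a fibre at 0.16, with the nearest at -0.41, Hspd1 one at 2.77, with the nearest at 2.89, and Samm50 one at 2.91, with the nearest at 3.46. Grpel1 had a wild type fibre of day 14 at 3.57, with the nearest at 3.48, Timm8b a transfected control of day 14 at 5.89, with the nearest at 5.68, and Timm9 a silenced fibre of day 14 at 0.16, with the nearest at -1.86. The effect of silencing on Chchd4 differed between days, by 1.73 (limma interaction, adjusted p = 3.6e-04), with all 4 silenced fibres of day 14 above all controls.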

How the results depend on the processing

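Chchd4 was called under all 14 alternatives for both days (0.67 to 0.98), day 14 and the change between days (1.31 to 1.83), and for vector minus silencing (-1.13 to -0.75). Counts of called import genes that moved by over 1.5 times were as follows. With the vector over both days, where 0 were called, there were 1 with the percentile taken over probes well above background on all arrays, 2 after quantile normalization, 3 each with normexp background, the submitters' values and array weights, and 5 against the transfected control. Under silencing over both days (2 called) there were 1 each with no filter, dim spots at a floor, only the compared groups, the detected share as covariate and array weights, and 4 with every probe tested on its own. At day 7 (1 called) there were 5 with that other percentile, 2 each with quantile, normexp, the submitters' values and a strict filter, and 0 each with median scaling, no filter, the floor, the covariate and array weights. The change of the silencing effect gave 3 with the other percentile, vector minus silencing 1 with median scaling, and control against wild type 8 with median scaling, 5 with every probe and 1 each with no filter, only the compared groups and the covariate. Smaller moves were 3 under silencing over both days with median scaling, normexp and the other percentile, 5 to 6 for vector minus silencing with quantile, the submitters' values and the other percentile, and 2 for control against wild type with these 3 and normexp. Equal counts can hold different genes: Tomm20 lost its call under 11 of 14 alternatives and Tomm5 at day 7 under 10, while Timm10, Timm9, Pmpca or others gained one. With the replicate block silencing gave 1 over both days and 0 at day 7, control against wild type gave 2, and the other counts were as before. Same-numbered fibres correlated from -0.18 to 0.19, above 0.1 in 4 of 14 pairs. Without such values for differently numbered fibres, these cannot settle whether the numbers pair fibres. Leaving out 1 fibre gave 0 to 2 with the vector over both days and 0 on each day, 1 to 2, 0 to 1 and 1 to 2 under silencing over both days, at day 7 and at day 14, 0 and 1 to 3 for the 2 changes between days, 3 to 5 for vector minus silencing and 1 to 4 for control against wild type. Samm50 under silencing turned to -0.077 with median scaling, -0.018 with normexp, -0.0062 with array weights and -0.026 without fibre 3 of the day 7 controls (-0.026 to 0.090 over all fibres left out); Tomm6 turned to -0.0025 at day 7 and 0.38 for its change when its probes were averaged. The causes were not tested. Of 917 values of named members, 800 kept direction and side of the threshold, 72 lost the call, 39 gained it and 6 turned. Median scaling moved the median of all genes under silencing over both days from 0.04 to -0.08 and that of the import genes from 0.10 to -0.03. Single-fibre amplification, 3 or 4 fibres a group and unknown animals limit all comparisons.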
